A study of Homo sapiens with 4 samples.

Results

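Antigen presentation genes were followed in MIA-PaCa2, a cell line from a human pancreatic tumour, after selection for resistance to AMG510 (sotorasib), a small-molecule cancer drug. The set was chosen by gene symbol and holds 30 genes of 57773 listed: chains of the major histocompatibility complex (MHC) class I and class II molecules, proteins that cut, transport and load peptides, and factors that switch these genes on. The resistant group had been kept in rising AMG510 for 2 months, up to 5 µM, and was set against untreated cells of the same line. Each group held 2 polyA RNA libraries, and both groups were grown in DMEM with fetal calf serum. The design text speaks of a pair of populations in each group but not of how far apart they were raised, so p-values cover only the spread between these libraries, part of which may be technical. Nothing in the labels says whether the drug was still present at harvest, and no interferon treatment is named. The treatment tag of resistant replicate 2 carries a compound number other than that in its title and in the design text, and the library was kept in its titled group.

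MHC class I molecules sit on almost all cells and show peptides cut from the cell's own proteins to cytotoxic T cells. A heavy chain pairs with beta-2-microglobulin in the endoplasmic reticulum and takes up a peptide that the proteasome has cut and the TAP transporter has carried in. Class II molecules show peptides from endosomes and are normally found on professional antigen-presenting cells. Interferon gamma induces both routes, class I mainly through the factor NLRC5 and class II through CIITA, with the RFX complex bound at the promoters of both.

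Expected counts summed to 30146559 and 33074965 in resistant replicates 1 and 2, against 38052558 and 35747414 in untreated replicates 1 and 2. Levels are given as CPM, counts scaled to library size, in which 3 counts, the limit that a count of 0 allows, came to between 0.0801 and 0.104 CPM. Cytokeratin KRT8 stood at 962 and 1245 CPM in resistant and 3091 and 2076 CPM in untreated libraries, and its partner KRT18 at 957 and 1222 against 2282 and 1735 CPM. Both were lower in resistant cells (log2 fold change −1.23 and −0.88, adjusted p = 0.00268 and 0.00692). VIM, the filament protein vimentin, stood at 7906 and 6697 CPM in resistant and 6037 and 5575 CPM in untreated libraries and did not pass (0.33, adjusted p = 0.160). The epithelial marker EPCAM was low in both groups, at 1.48 and 1.33 CPM in resistant and 2.085 and 1.39 CPM in untreated libraries. It did not pass either (−0.30, adjusted p = 0.641). The acinar and islet genes of normal pancreas had at most 1 count in any library. Markers of blood cells, the other cells that carry class II, summed over 12 genes to 2.42 and 2.52 CPM in resistant and 12 and 17.7 CPM in untreated libraries. The pan-leukocyte gene PTPRC had at most 5 counts, and the dendritic cell genes FCER1A and CLEC9A had 0. Most of the sum came from LYZ, CD14 and CD79A, all 3 lower in resistant cells. Their part in the results was not tested.

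Most of the class I route was higher in the resistant cells, while HLA-DRA, HLA-DRB1, HLA-DPA1, HLA-DPB1 and CD74 of the class II route were at low levels in both groups. Of the 30 members, 25 had enough counts for a test. By the quasi-likelihood test of edgeR, with p-values adjusted over all genes after Benjamini and Hochberg, 12 of them rose, 2 fell and 11 did not pass an adjusted p of 0.05. Over all 16090 tested genes 34% passed, 16.6% as higher and 17.4% as lower. The counts given below for parts of the set and for further lists are to be read beside these shares. The median log2 fold change, resistant over untreated, was 0.67 for the tested members and −0.01 for all tested genes. Both resistant values lay above both untreated ones in 15 of the 25 and below them in 5. Over all tested genes the groups did not overlap in 70.9%, with 34.6% higher and 36.3% lower. Without untreated replicate 1 the calls over all genes numbered 2832 instead of 5463, and 10 members rose and 0 fell. In bulk RNA, fewer cells that express a gene and less RNA per cell cannot be told apart.

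**Figure D1:**
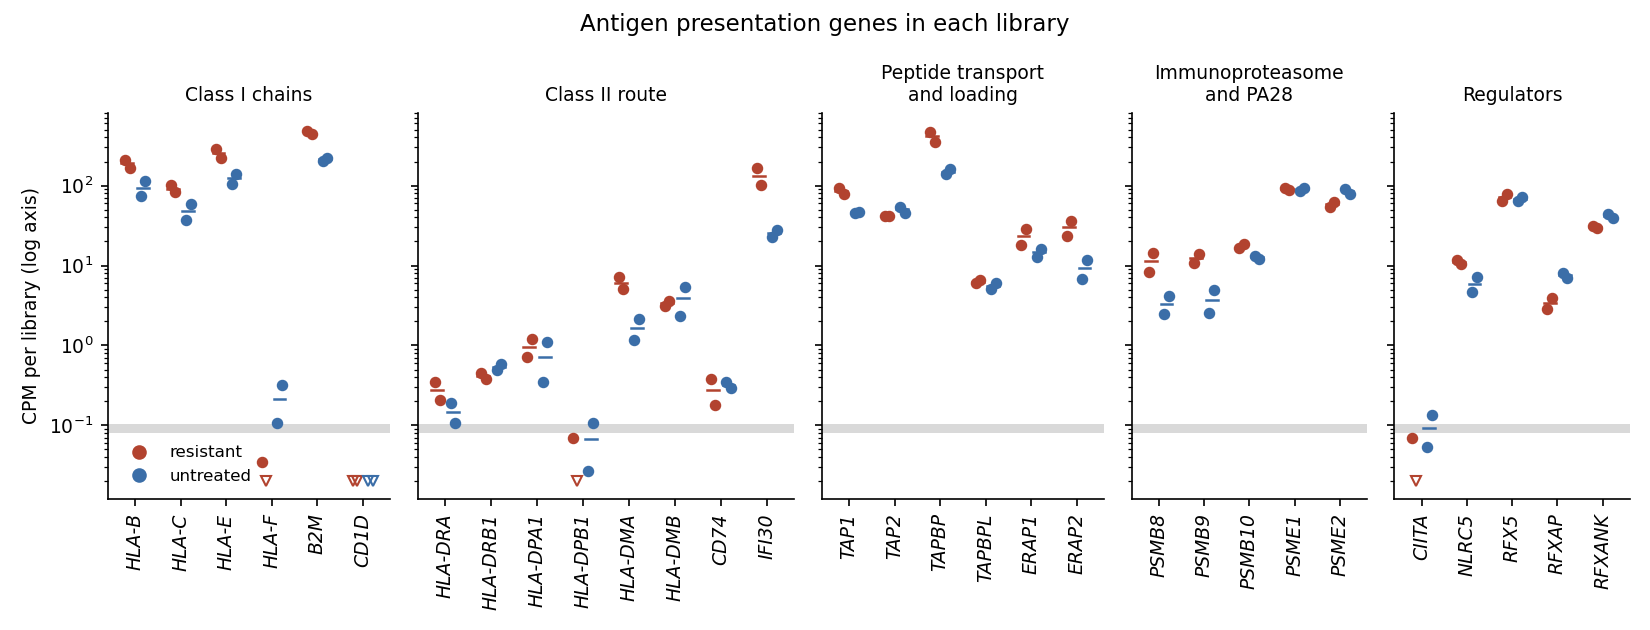
Level of each member in each library, in CPM on a log axis, by role; each point is 1 library, bars are group means (left out where a library had 0 counts), open triangles are libraries with 0 counts, and the grey band is the level of 3 counts. B2M, HLA-B, HLA-C and HLA-E lie at 82.0 CPM or more in resistant cells, while HLA-DRA, HLA-DRB1, HLA-DPA1, HLA-DPB1 and CD74 lie at 1.21 CPM or less in both groups.

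The class I heavy chains and their light chain rose by about the same amount. HLA-B, a classical heavy chain (ENSG00000234745), had 211 and 167 CPM in resistant libraries, against 73.5 and 115.6 CPM in untreated ones. Both resistant values lay above both untreated ones, a 2.0-fold rise (SE 0.23 on the log2 scale, adjusted p = 0.00882), and 18.9% of its exon bases overlap other expressed genes. HLA-C, the other classical chain in the set, had 101.4 and 82.0 CPM in resistant and 37.1 and 58.7 CPM in untreated libraries. Its groups did not overlap either, and it was higher by 0.94 (log2; SE 0.22, adjusted p = 0.0113). Without untreated replicate 1 HLA-C no longer passed (0.67, adjusted p = 0.0515). HLA-E, a chain with little variation between people that is read by NK cell receptors, had 287.5 and 223.7 CPM in resistant and 105.5 and 141.2 CPM in untreated libraries. It rose by 1.05 on the log2 scale (SE 0.20, adjusted p = 0.00289). B2M, beta-2-microglobulin (ENSG00000166710, chromosome 15), stood at 488.1 and 445.5 CPM in resistant and 205.2 and 219.2 CPM in untreated libraries. It was the most even of the 4 within groups and rose by 1.14 (SE 0.16, adjusted p = 6.91e-04).

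Because ratios within a library do not depend on scaling, each heavy chain was also set against B2M. The HLA-B count was 43.3% and 37.5% of the B2M count in resistant libraries and 35.8% and 52.7% in untreated ones. For HLA-C the shares were 20.8% and 18.4% in resistant and 18.1% and 26.8% in untreated libraries, and for HLA-E 58.9% and 50.2% against 51.4% and 64.4%. In all 3 ratios the groups overlapped, and the mean log2 difference of −0.17 to −0.08 was smaller than the pooled SD of 0.20 to 0.30. Of 50-base stretches in the HLA-B, HLA-C and HLA-E transcripts, 2.5%, 6.7% and 2.7% also occur in transcripts of other expressed genes, so the split of reads among class I chains carries some uncertainty.

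The remaining class I type genes were not seen at a usable level. HLA-F, a chain thought to travel partly without peptide, had 1 and 0 counts in resistant and 4 and 12 in untreated libraries. The summed ratio was 0.0741, resistant over untreated, with an exact 95% counting interval of 0.00177 to 0.477, and 12.3% of its exon bases overlap other expressed genes, HLA-F-AS1 on the opposite strand among them. CD1D, which presents lipids to NKT cells, had 0 counts in all 4 libraries. Among 9 further class I-like and class II genes, 5 could be tested, of which 2 rose, 0 fell and 3 did not pass, with a median log2 fold change of 0.59. PROCR, the endothelial protein C receptor, which has a class I-like fold, rose by 0.85 (SE 0.23, adjusted p = 0.0173). FCGRT, the heavy chain of the neonatal Fc receptor and a partner of B2M, rose by 0.66 (SE 0.21, adjusted p = 0.0312). HFE, an iron-regulating partner of B2M, did not pass (0.28, adjusted p = 0.223).

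Genes of peptide transport and loading split, with 3 of 6 higher, 0 lower and 3 not passing. TAPBP, tapasin, which bridges the TAP transporter and the class I molecule and edits its peptide, had 472 and 355 CPM in resistant and 139 and 159 CPM in untreated libraries. The groups lay far apart, and TAPBP rose by 1.47 on the log2 scale (SE 0.19, adjusted p = 3.69e-04). Other expressed genes share 5.2% of the 50-base stretches of TAPBP. TAP1, a chain of the transporter, had 92.1 and 78.4 CPM in resistant and 46.0 and 46.8 CPM in untreated libraries. It rose by 0.88 (SE 0.16, adjusted p = 0.00245). TAP2, with which TAP1 must pair to transport peptides, had 42.1 and 41.5 CPM in resistant and 54.5 and 45.9 CPM in untreated libraries. TAP2 did not pass, at −0.26 (SE 0.17, adjusted p = 0.248). The TAP2 value is uncertain, since 35.8% of its 50-base stretches also occur in other expressed transcripts, mainly a same-strand readthrough with 0 and 30.9 counts in resistant and 42.4 and 75.7 in untreated libraries. TAPBPL, the tapasin-related editor TAPBPR, had 6.07 and 6.51 CPM in resistant and 5.04 and 5.98 CPM in untreated libraries and did not pass (0.19, adjusted p = 0.653).

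Both aminopeptidases that trim peptides in the endoplasmic reticulum lie next to each other on chromosome 5. ERAP2 had 23.5 and 36.4 CPM in resistant and 6.82 and 11.8 CPM in untreated libraries. Every resistant value was above every untreated one, and it rose by 1.68 (SE 0.31, adjusted p = 0.00393). ERAP1 had 17.8 and 28.5 CPM in resistant and 12.9 and 16.2 CPM in untreated libraries. Its groups did not overlap, but its log2 fold change of 0.67 (SE 0.26) did not pass, at an adjusted p = 0.0659. The ERAP1 result lay close to the threshold: it passed with DESeq2 (adjusted p = 0.0474), with no filter, with a stricter filter, with a replicate block and without resistant replicate 1 (adjusted p = 0.00275). Over the other 574 tested protein-coding genes of chromosome 5 the median log2 fold change was −0.42.

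General folding factors of the endoplasmic reticulum, which class I chains use as well, were higher in part. Of 10 genes 5 rose, 0 fell and 5 did not pass, with a median log2 fold change of 0.50. CALR, calreticulin, a member of the peptide-loading complex, had 1738 and 1035 CPM in resistant against 667 CPM in each untreated library (log2 fold change 1.06, SE 0.23, adjusted p = 0.00761). GANAB, a glucosidase subunit that trims new glycoproteins, rose by 0.90 (SE 0.16, adjusted p = 0.00226), and P4HB, a disulphide isomerase, by 0.70 (SE 0.17, adjusted p = 0.0116). CANX, calnexin, which holds new heavy chains, did not pass (0.45, SE 0.16, adjusted p = 0.0522).

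The catalytic subunits of the immunoproteasome, the proteasome form that interferon gamma induces and that yields peptides suited to class I, rose in 2 of 3 cases. PSMB8 (LMP7) had 8.28 and 14.4 CPM in resistant and 2.46 and 4.19 CPM in untreated libraries. Its groups were apart although replicate 2 stood at 1.74 times replicate 1 in resistant and 1.70 times in untreated cells, and it rose by 1.77 (SE 0.37, adjusted p = 0.00542). PSMB9 (LMP2) had 10.6 and 13.9 CPM in resistant and 2.57 and 4.89 CPM in untreated libraries. It rose by 1.72 (SE 0.35, adjusted p = 0.00428). PSMB10 (MECL-1) had 16.5 and 18.65 CPM in resistant and 13.2 and 12.1 CPM in untreated libraries and did not pass (0.47, SE 0.22, adjusted p = 0.117). Of the 50-base stretches of PSMB10 38.9% also occur in another expressed transcript, a same-strand readthrough. That readthrough had 116 and 113 counts in resistant and 150 and 133 in untreated libraries. With its counts added, the PSMB10 change was 0.37 (adjusted p = 0.179). PSMB8 and PSMB9 overlap the noncoding PSMB8-AS1, which had 20 and 53 counts in resistant and 5 and 12 in untreated libraries. The exons of PSMB8 overlap other expressed genes, chiefly PSMB8-AS1 on the opposite strand, over 20.6% of their bases, and without a known strand setting such reads cannot be told apart.

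PSMB5, PSMB6 and PSMB7, constitutive subunits of the standard proteasome, were lower. They were listed with the activators PSME3 and PSME4 and the assembly factor POMP. Of these 6 genes 0 rose, 5 fell and 1 did not pass, with a median log2 fold change of −0.66. Other subunits of the standard proteasome were not in the list. PSMB5, replaced by PSMB8, had 120.6 and 104.5 CPM in resistant and 193.3 and 160.5 CPM in untreated libraries and fell by 0.65 (SE 0.17, adjusted p = 0.0141). PSMB6, replaced by PSMB9, fell by 0.69 (SE 0.16, adjusted p = 0.00703). Within each library the PSMB8 count was 6.86% and 13.8% of the PSMB5 count in resistant cells, against 1.27% and 2.61% in untreated ones, a mean 5.33-fold difference. PSMB9 stood at 11.6% and 14.6% of PSMB6 in resistant and 1.62% and 3.43% in untreated cells, a 5.53-fold difference. For PSMB10 over PSMB7 the shares were 17.5% and 15.5% in resistant and 7.08% and 7.79% in untreated cells, a 2.22-fold difference. Part of it comes from PSMB7, which fell by 0.67 (SE 0.18, adjusted p = 0.0158), while PSMB10 did not pass. No resistant ratio overlapped an untreated one; with 2 libraries a group an exact permutation test cannot go below p = 0.333, so no test was made. These are ratios of counts, not corrected for transcript length.

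**Figure D2:**
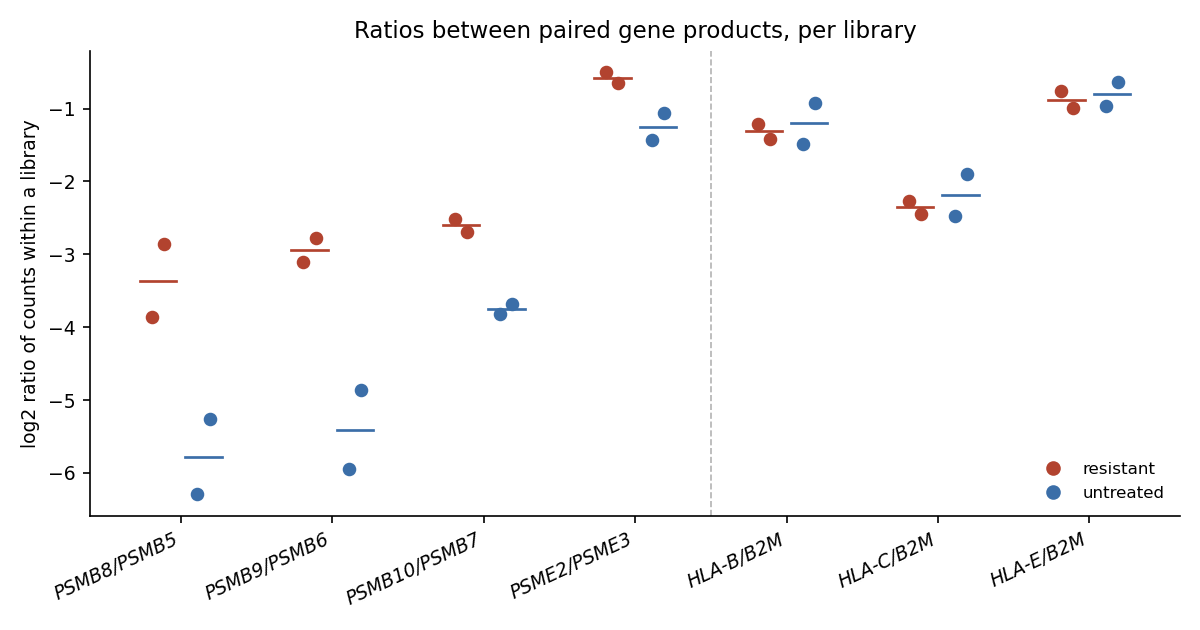
Log2 ratio of counts within each library, resistant left of untreated, with 1 point per library and bars for group means. Left of the dashed line are PSMB8, PSMB9 and PSMB10 over their constitutive counterparts, and PSME2 over PSME3, a separate activator. PSME2 and PSME3 were both lower in resistant cells. Right of the line are class I heavy chains over B2M. The 4 proteasome ratios are higher in both resistant libraries, and the 3 heavy chain ratios overlap between groups.

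The proteasome activator PA28, a ring of PSME1 and PSME2 chains that interferon gamma also induces, did not move with the catalytic subunits. PSME1 had 93.2 and 88.9 CPM in resistant and 85.8 and 94.6 CPM in untreated libraries, with groups that overlapped (log2 fold change 0.01, SE 0.15, adjusted p = 0.956). PSME2 had 53.5 and 62.95 CPM in resistant and 91.9 and 79.55 CPM in untreated libraries and fell by 0.56 (SE 0.16, adjusted p = 0.0240). Of the 50-base stretches of PSME2, 9.7% also occur in transcripts of other expressed genes, so its counts carry some uncertainty. The PSME2 call ended without resistant replicate 1 (adjusted p = 0.180) and without untreated replicate 1 (adjusted p = 0.179). PSME3, which forms a separate nuclear activator, fell further, by 1.25 (SE 0.22, adjusted p = 0.00254), so that PSME2 stood at 70.9% and 63.6% of the PSME3 count in resistant and 37.1% and 47.8% in untreated cells. PSME4, the activator PA200, did not pass (−0.25, adjusted p = 0.303). Among 8 peptidases of the cytosol, which trim or destroy proteasome products, 0 rose, 3 fell and 5 did not pass (median −0.36). THOP1, an oligopeptidase, fell by 0.71 (SE 0.17, adjusted p = 0.0102), LAP3, a leucine aminopeptidase, by 0.74 (SE 0.18, adjusted p = 0.0102) and TPP2, a large tripeptidyl peptidase, by 0.76 (SE 0.19, adjusted p = 0.0114). NRDC, nardilysin, did not pass (0.21, adjusted p = 0.323).

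The DR and DP chains of the set, which present peptides, and CD74 were at low levels in both groups, at 1.21 CPM or less in every library. Outside the set, the class II chain HLA-DQB1 had 0.69 and 1.125 CPM in resistant and 0.379 and 1.23 CPM in untreated libraries. It did not pass (0.18, adjusted p = 0.85). HLA-DRA, the alpha chain of HLA-DR, had 10 and 7 counts in resistant and 7 and 4 in untreated libraries, too few to test. The ratio was 1.83, resistant over untreated, with an exact 95% counting interval of 0.809 to 4.33, which includes no difference. HLA-DPB1 had 2 counts over the resistant and 5 over the untreated libraries (ratio 0.474, interval 0.0451 to 2.90). HLA-DRB1, the partner of HLA-DRA, had 0.449 and 0.385 CPM in resistant and 0.487 and 0.588 CPM in untreated libraries and did not pass (−0.37, SE 0.57, adjusted p = 0.656). Other expressed genes share 8.6% of the 50-base stretches of HLA-DRB1. HLA-DPA1 had 0.725 and 1.21 CPM in resistant and 0.352 and 1.10 CPM in untreated libraries and did not pass (0.42, SE 0.62, adjusted p = 0.637). CD74, the invariant chain that guides class II molecules to endosomes, had 0.380 and 0.178 CPM in resistant and 0.352 and 0.294 CPM in untreated libraries (−0.23, SE 0.67, adjusted p = 0.820). The direction of HLA-DPA1 turned without untreated replicate 1 and that of CD74 without resistant replicate 2. Per kilobase of transcript, HLA-DRA averaged 0.216 CPM in resistant and 0.116 CPM in untreated cells, and CD74 0.284 and 0.329 CPM, where B2M averaged 274 and 124 CPM.

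HLA-DMA and HLA-DMB encode the paired chains of HLA-DM, which exchanges peptides on class II molecules in endosomes, and they parted. HLA-DMA had 7.11 and 5.12 CPM in resistant and 1.16 and 2.14 CPM in untreated libraries. Both resistant values were above both untreated ones, a rise of 1.89 (SE 0.41, adjusted p = 0.00578). HLA-DMB had 3.11 and 3.64 CPM in resistant and 2.36 and 5.42 CPM in untreated libraries, so that the resistant values lay inside the untreated range. It did not pass (−0.20, SE 0.43, adjusted p = 0.745), and its direction turned without untreated replicate 2.

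The largest rise of the set was IFI30, also named GILT, a thiol reductase of lysosomes that unfolds proteins for class II and is induced by interferon gamma. It had 165.6 and 100.7 CPM in resistant and 22.7 and 27.9 CPM in untreated libraries. Even the lower resistant library lay far above both untreated ones, and IFI30 rose by 2.39 on the log2 scale (SE 0.25, adjusted p = 2.57e-04). A same-strand readthrough shares 87.5% of its 50-base stretches and was given 0 and 24.96 counts in resistant and 0 and 0 in untreated libraries, where IFI30 itself had 4800 and 3400 counts in resistant and 838 and 1046 in untreated libraries. Of 8 endosomal genes that prepare or recycle class II, 7 were tested, and 1 rose, 0 fell and 6 did not pass (median 0.38). The riser was LGMN, the protease legumain (0.67, SE 0.15, adjusted p = 0.00717). CTSD, cathepsin D, did not pass (−0.06, adjusted p = 0.789).

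The class I and class II master regulators differed in level. NLRC5, the class I transactivator, had 11.6 and 10.3 CPM in resistant and 4.685 and 7.19 CPM in untreated libraries. NLRC5 rose by 0.88 on the log2 scale (SE 0.29, adjusted p = 0.0395). It no longer passed when resistant replicate 1 (adjusted p = 0.0918) or untreated replicate 1 (adjusted p = 0.223) was left out. CIITA, the class II transactivator, had 2 and 0 counts in resistant and 2 and 5 in untreated libraries. The ratio over groups was 0.339, with an exact 95% counting interval of 0.0343 to 1.78, and no difference was detectable at this depth.

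The RFX complex, which both transactivators need at the DNA, had no subunit that passed as higher. RFX5, its DNA-binding subunit, had 64.8 and 77.4 CPM in resistant and 64.1 and 71.0 CPM in untreated libraries, with groups that overlapped (0.07, SE 0.16, adjusted p = 0.755) and a direction that turned without resistant replicate 2. RFXAP had 2.86 and 3.94 CPM in resistant and 7.96 and 7.05 CPM in untreated libraries and fell by 1.14 (SE 0.32, adjusted p = 0.0195). The RFXAP call ended without resistant replicate 1 (adjusted p = 0.0915) and without untreated replicate 1 (adjusted p = 0.107). RFXANK had 31.05 and 29.4 CPM in resistant and 44.2 and 38.95 CPM in untreated libraries and did not pass (−0.46, SE 0.17, adjusted p = 0.0608). Its exons overlap other expressed genes, chiefly BORCS8 on the opposite strand, over 23.3% of their bases.

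**Figure D3:**
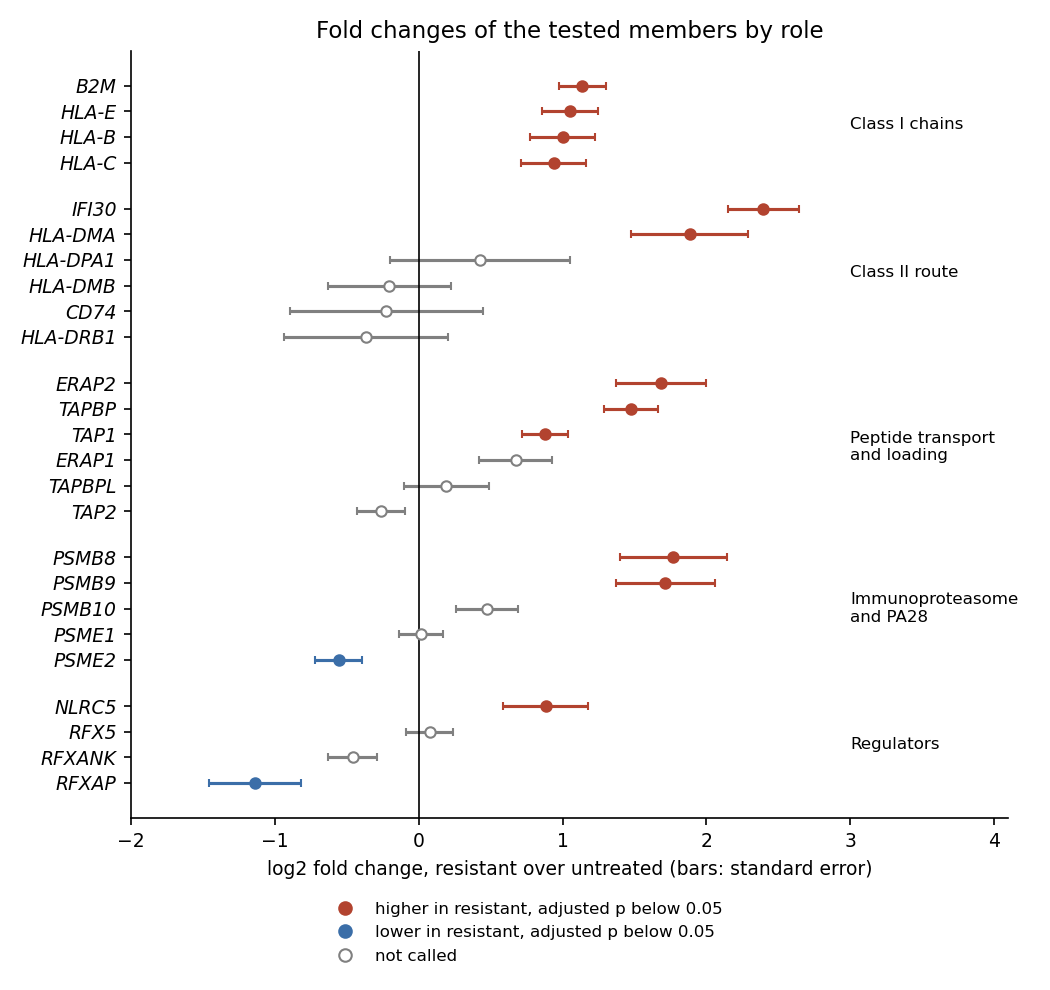
Log2 fold change, resistant over untreated, of the 25 tested members by role, with standard error bars; filled points passed an adjusted p of 0.05, open points did not. The 4 class I chains lie between 0.94 and 1.14, and the class II route is split between IFI30 and HLA-DMA on one side and chains around 0 on the other.

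Of 8 factors that bind beside RFX at MHC promoters, or act with it, 1 rose, 2 fell and 5 did not pass (median −0.13). These counts lie near the shares over all tested genes, 16.6% higher and 17.4% lower. KAT2B, the acetyltransferase PCAF, rose by 1.42 (SE 0.22, adjusted p = 0.00112). NFYA, a subunit of the NF-Y complex that binds the Y box, fell by 0.80 (SE 0.17, adjusted p = 0.00493), and CREBBP, an acetyltransferase coactivator, fell by 0.53 (SE 0.15, adjusted p = 0.0221). EP300, its relative, did not pass (0.43, adjusted p = 0.0644).

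Upstream, 15 of 17 genes of interferon signal input were tested, and 5 rose, 2 fell and 8 did not pass (median 0.35). IRF1, a factor that binds interferon response elements of class I genes, had 33.8 and 43.1 CPM in resistant and 12.65 and 16.8 CPM in untreated libraries. Its groups were well apart, with a rise of 1.39 (SE 0.22, adjusted p = 0.00116). JAK1, a kinase bound to interferon receptors, rose by 0.82 (SE 0.16, adjusted p = 0.00335). SOCS3, a feedback inhibitor of cytokine receptors, fell by 1.12 (SE 0.28, adjusted p = 0.0112). SOCS1, of the same family, went the other way and rose by 1.24 (SE 0.42, adjusted p = 0.0429). The receptor chain IFNAR1 fell by 0.60 (SE 0.16, adjusted p = 0.0177). IFNGR2, a chain of the interferon gamma receptor, did not pass (−0.42, adjusted p = 0.0536). The list also holds 3 interferons, named after their values were seen. IFNL1, a type III interferon, had 12 and 18 counts in resistant and 2 and 2 counts in untreated libraries and rose by 3.06 on the log2 scale (SE 0.76, adjusted p = 0.0116), a size that is uncertain at so few untreated counts. IFNG and IFNB1 had 0 counts in all 4 libraries.

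Promoter windows from RefSeq (GRCh38.p14), reaching from 250 bases before to 50 after each gene's start, were at hand for 26 members in 37 windows; HLA-E, HLA-DRA, CIITA and NLRC5 had none. The core of the interferon-stimulated response element, searched on both strands as GAAA, any 2 bases and GAAA again, occurred in 12 of the 37 member windows (32.4%) and in 3.57% of all 35116 windows. The 12 genes with a match were in every class of result. They were 5 of the 10 risers with a window (B2M, TAPBP, TAP1, PSMB8 and ERAP2), PSME2 of the 2 genes that fell, 5 of the 11 that did not pass (ERAP1, TAP2, PSMB10, PSME1 and RFX5) and HLA-F, which was not tested. GATTGG, the Y box, was in 9 windows (24.3%, against 15.1% of all), at bases −56 to −51 of both HLA-B and HLA-C and −50 to −45 of B2M, where 0 is the RefSeq start. A kappa B site, GGGA, any base and TCCCC, was in HLA-B alone among the members and in 0.42% of all windows. TTCNNNGAA, the gamma-activated site, was in 2 member windows (5.41%, against 7.66%), and GCAACNG, a core of the X1 box, in 5 (13.5%, against 11.9%). The windows of TAPBP, TAP1, PSMB8, PSMB9, ERAP2 and IFI30, which also rose, hold no GATTGG.

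The windows below are shown because the first 4 belong to class I genes that rose and the last, PSME2, holds a response element core but fell. Capitals mark matches to the motifs named above, on either strand, and sequences run 5′ to 3′ on the strand of the gene. B2M lies at chr15:44711267-44711566 (plus strand), TAPBP at chr6:33314029-33314328 (minus), TAP1 at chr6:32853655-32853954 (minus), HLA-B at chr6:31357130-31357429 (minus) and PSME2 at chr14:24146561-24146860 (minus).
B2M: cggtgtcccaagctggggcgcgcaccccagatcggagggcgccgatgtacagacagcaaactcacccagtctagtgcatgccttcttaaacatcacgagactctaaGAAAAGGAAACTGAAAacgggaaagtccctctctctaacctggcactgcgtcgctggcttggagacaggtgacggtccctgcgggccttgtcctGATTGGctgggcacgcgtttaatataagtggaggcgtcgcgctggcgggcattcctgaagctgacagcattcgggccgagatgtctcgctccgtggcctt
TAPBP: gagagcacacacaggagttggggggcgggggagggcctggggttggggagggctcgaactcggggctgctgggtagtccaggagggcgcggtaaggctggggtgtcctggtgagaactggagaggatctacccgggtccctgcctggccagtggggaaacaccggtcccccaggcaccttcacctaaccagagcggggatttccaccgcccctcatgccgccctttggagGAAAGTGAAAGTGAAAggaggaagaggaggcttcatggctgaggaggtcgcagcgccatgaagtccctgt
TAP1: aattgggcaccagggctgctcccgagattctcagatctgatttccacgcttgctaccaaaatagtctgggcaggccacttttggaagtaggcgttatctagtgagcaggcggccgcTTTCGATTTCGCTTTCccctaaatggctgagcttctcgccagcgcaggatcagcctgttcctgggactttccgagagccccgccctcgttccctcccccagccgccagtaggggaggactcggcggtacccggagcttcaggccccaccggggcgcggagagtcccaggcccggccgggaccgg
HLA-B: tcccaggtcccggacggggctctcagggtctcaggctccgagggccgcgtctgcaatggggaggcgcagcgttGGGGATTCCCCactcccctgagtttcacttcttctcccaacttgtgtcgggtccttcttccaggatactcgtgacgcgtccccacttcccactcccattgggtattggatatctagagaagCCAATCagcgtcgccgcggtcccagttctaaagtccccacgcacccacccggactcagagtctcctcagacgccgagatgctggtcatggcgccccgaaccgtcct
PSME2: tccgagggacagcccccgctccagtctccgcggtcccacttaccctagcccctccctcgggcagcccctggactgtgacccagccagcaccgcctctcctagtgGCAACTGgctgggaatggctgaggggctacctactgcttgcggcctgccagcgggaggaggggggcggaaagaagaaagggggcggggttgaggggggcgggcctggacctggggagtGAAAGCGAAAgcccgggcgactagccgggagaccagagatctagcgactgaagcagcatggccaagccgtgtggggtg
In B2M and TAPBP the core occurs as a pair overlapping by 4 bases, and in TAP1 as such a pair on the opposite strand, at bases −134 to −119. TAP1 and PSMB9 face away from each other with starts 488 bases apart from the TAP1 start shown and 1431 bases apart from its other RefSeq start, and both rose. In HLA-B the capitals hold 1 kappa B run, which matches in 2 registers, and 1 Y box on the opposite strand. The PSME2 window holds a single core at −28 to −19 and an X1 box core. A match is a description of letters, not evidence of binding.

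Most of the MHC genes lie together on chromosome 6, so their neighbours were examined. Of the 12 tested members on that chromosome 8 rose and 0 fell, with a median log2 fold change of 0.97. Between HLA-F and TAPBP lie 87 other tested protein-coding genes, leaving out further MHC chains, of which 15 rose and 14 fell, with a median of −0.05. Members that did not pass (TAP2, HLA-DMB, HLA-DPA1 and HLA-DRB1) lie among those that rose.

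**Figure D4:**
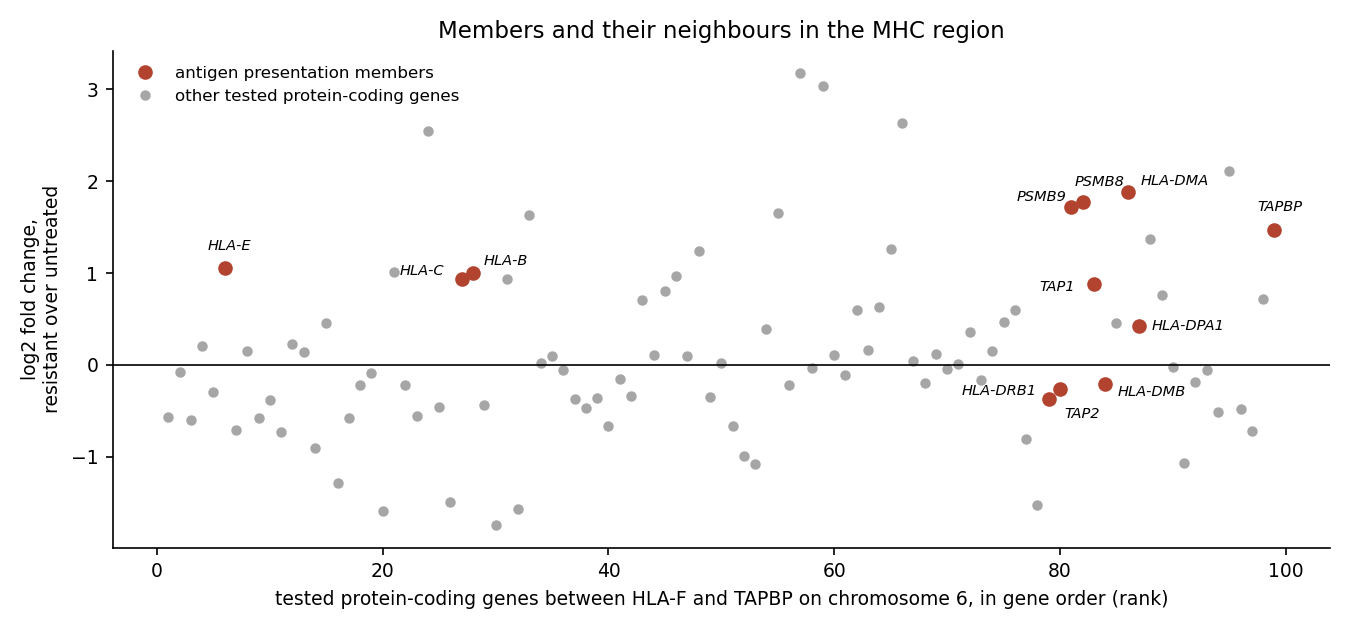
Log2 fold change, resistant over untreated, of tested protein-coding genes between HLA-F and TAPBP on chromosome 6, in gene order; larger points are members. The 87 neighbours scatter around a median of −0.05, while 8 of the 12 members passed the test as higher.

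Libraries of 1 group also differed among themselves. In 19 of the 25 tested members untreated replicate 2 was above untreated replicate 1, where 50.5% of all tested genes were, and the ratio was 1.57 for HLA-B, 1.84 for HLA-DMA and 1.90 for PSMB9. Between resistant replicates 11 of the 25 were higher in replicate 2, where 50.7% of all tested genes were. PSMB8, ERAP1 and ERAP2 were 1.74, 1.60 and 1.55 times higher in resistant replicate 2, whereas IFI30 and HLA-DMA stood at 0.608 and 0.721 of their level in replicate 1. These are single libraries, and no test applies.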

How the data were processed

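PolyA RNA of 2 resistant and 2 untreated populations was sequenced. Per the file headers, the authors deposited unscaled expected counts for each gene, in 1 table per library. Per the submitters' processing notes, STAR 2.7.2b, RSEM 1.3.1 and GRCh37 were used; the role of each, the annotation release and the strand setting are not given in the sources used here. The counts were rounded to whole numbers (93.6% of deposited values already were). Groups came from sample titles. Symbols were matched to gene IDs, 1 ID for each member. Chromosomes, gene order, exon overlap and transcript lengths came from GENCODE 29, which is of another build, so no coordinates of the counted genes are given. Exon overlap and shared 50-base stretches were counted against genes with at least 10 counts in total.

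Genes were filtered with filterByExpr, scaled with TMM and tested with edgeR 4.0.16 (quasi-likelihood, robust, default form; R 4.3.3), with Benjamini-Hochberg adjustment over 16090 genes and a threshold of 0.05. SEs were taken as the absolute log2 fold change over the root of the F statistic. Intervals and floors cover counting error only. The test was also run on simulated counts in which 200 genes were changed, far fewer than the 5463 called in the data. Because of that difference no result rests on the simulated run. Settings tried beside these were scaling by RLE or by the upper quartile, no filter or 1 CPM in 2 libraries, a replicate block, each library left out, a threshold of 0.01, DESeq2 1.42.0, limma-voom (limma 3.58.1), the newer quasi-likelihood form and, chosen after seeing the data, overlapping same-strand transcripts added to their member. The members and lists were chosen with earlier results of these data known. All members are named. From each other list, up to 3 called genes of smallest adjusted p were named, and the gene not called with the highest mean CPM. Values of PSMB7, SOCS1, IFNAR1 and HLA-DQB1 were added after they had been seen. Blood cell markers are given by count and summed CPM, and markers of the line by single genes.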

Additional observations from a re-analysis of the deposited data

How the results depend on the processing

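RLE or upper-quartile scaling, limma-voom, the newer quasi-likelihood form and overlapping transcripts added to their member changed no member's call or direction. DESeq2, no filter, the stricter filter and the replicate block each changed 1, ERAP1, which then passed (adjusted p = 0.0164 to 0.0497), so that 13 members rose; HLA-DRB1 and CD74 were not tested under the stricter filter. At a threshold of 0.01, 10 members rose and 0 fell, and 2832 of all genes were called. Leaving out 1 library gave 2832 to 5041 calls over all genes, 10 to 12 members higher, 0 to 2 lower, and a member median of 0.38 to 0.86. Directions that turned belonged to members that had not passed, with log2 fold changes of −0.15 to 1.45 for HLA-DPA1, −0.66 to 0.51 for HLA-DMB, −0.835 to 0.23 for CD74, −0.032 to 0.075 for PSME1 and −0.061 to 0.213 for RFX5. Calls of HLA-C, NLRC5, PSME2 and RFXAP ended without untreated replicate 1, and those of NLRC5, PSME2 and RFXAP also without resistant replicate 1. The cause was not tested. The immunosubunit ratios kept their direction without any library, while the heavy chain to B2M ratios turned, with log2 differences of −0.39 to 0.17 for HLA-B, −0.45 to 0.12 for HLA-C and −0.24 to 0.08 for HLA-E. Each member had 1 gene ID, so summing IDs changed nothing. HLA-F over B2M was not computed because a library had 0 counts. Nothing in the labels pairs samples by number, and same-numbered libraries did not deviate together (r = −0.0604 across genes). The replicate block gave 5275 calls over all genes, 13 members higher and 2 lower. Depth limits HLA-F, CD1D, CIITA, HLA-DRA and HLA-DPB1, where only counts could be given.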
